A study of Mus musculus with 12 samples.

Results

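Glycolysis begins and ends at the cell membrane, with transporters for glucose and for lactate, and many of its steps can be run by more than 1 gene. The account below covers 35 such genes: the glucose transporters Slc2a1, Slc2a3 and Slc2a4, the enzymes of each glycolytic step with their isoenzymes, the lactate transporters Slc16a1 and Slc16a3, and the kinases and phosphatases that set the pace of phosphofructokinase and pyruvate dehydrogenase. They were chosen by gene symbol out of 34303 symbols in the table. No cut on their values was used, but earlier results of these data were known. A total of 34 of the 35 passed the filter on low values and were tested among 14752 genes, and Pklr, the liver and red cell pyruvate kinase, was not tested.

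Glycolysis splits glucose to pyruvate for a small yield of ATP, and lactate dehydrogenase then turns pyruvate into lactate, which leaves the cell through monocarboxylate transporters. Skeletal muscle uses isoenzymes of its own at several steps (Pfkm, Pgam2, Eno3) and the insulin-responsive transporter Slc2a4, whereas epithelia and many tumours use Slc2a1, Pfkl, Pfkp, Pgam1 and Eno1. Squamous epithelium is known for high Slc2a1, and hypoxia-inducible factor (HIF) is known to switch on many of these genes.

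RNA was sequenced from 12 mouse libraries of C57Bl6 background in 4 groups. Cutaneous squamous cell carcinomas (cSCC) came from TAp63-/- mice (n = 4) and wild-type (WT) mice (n = 2) older than 35 weeks, after chronic exposure to ultraviolet light, 3 doses of 2.5 kJ/m2 each week. Untreated dorsal skin came from TAp63-/- mice (n = 3) and WT mice (n = 3) aged 4 weeks. TAp63-/- mice lack the long p63 isoforms, those with a transactivation domain at the N terminus, and no promoter or Cre line is named in the labels. Whole frozen tissue was used, so each library holds every cell type of the piece. The titles of the 12 libraries carry different identifiers, but whether each library came from a separate animal was not stated. The p-values therefore measure only the spread between these samples.

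Values are FPKM (fragments per kilobase of transcript, scaled to library size), and all 12 libraries share 1 distribution of values, so the read depth is unknown. Between 13019 and 13073 symbols reached 1 FPKM per library. Trp63, the gene of which TAp63 is a part, had 109 to 258 FPKM in TAp63-/- cSCC and 97.3 to 141 FPKM in WT cSCC, against 84.5 to 111 FPKM in TAp63-/- skin and 100.4 to 119 FPKM in WT skin. Its values add all p63 isoforms together and do not check the deletion. Tumour and skin libraries differed in age, in ultraviolet exposure and in the prefix of their titles as well as in tissue. By Xist and Y-linked transcripts all 6 skin libraries and TAp63-/- cSCC replicate 1 were male and the other 5 tumours female. These differences and the tissue cannot be told apart. Sex departs from tissue only in that 1 male tumour, whose sex and own variation cannot be told apart either. In WT, sex and tissue are fully joined.

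In both genotypes the tumours had far more RNA of the glucose transporter Slc2a1, more of the lactate transporter Slc16a1 and far less of the muscle isoenzymes, while the lactate transporter Slc16a3 passed the test in TAp63-/- cSCC and did not in WT cSCC (2.14 on the log2 scale, limma adjusted p = 0.0757). In TAp63-/- cSCC against TAp63-/- skin, 16 of 34 members (47.1%) changed at an adjusted p below 0.05 (limma, Benjamini-Hochberg over all tested genes), while 27.2% of all tested genes did. A total of 8 rose (Slc2a1, Pfkl, Pgk1, Pgam1, Eno1, Pkm, Slc16a1 and Slc16a3) and 8 fell (Slc2a4, Pfkm, Aldoa, Pgam2, Eno3, Ldhb, Pdk2 and Pdk4). In WT cSCC against WT skin, 15 of 34 members (44.1%) changed, while 11.4% of all tested genes did. A total of 8 rose there, with Ldha in place of Slc16a3, and 7 fell, the same list without Pdk4. The members called in both comparisons number 14, 7 higher and 7 lower in each. The median change over the 34 members was 0.30 on the log2 scale in TAp63-/- cSCC, against 0.10 over all tested genes, and 0.01 in WT cSCC, against 0.04. All changes are differences of log2(FPKM + 1), tumour minus skin, and understate the change of genes with low values.

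**Figure D1:**
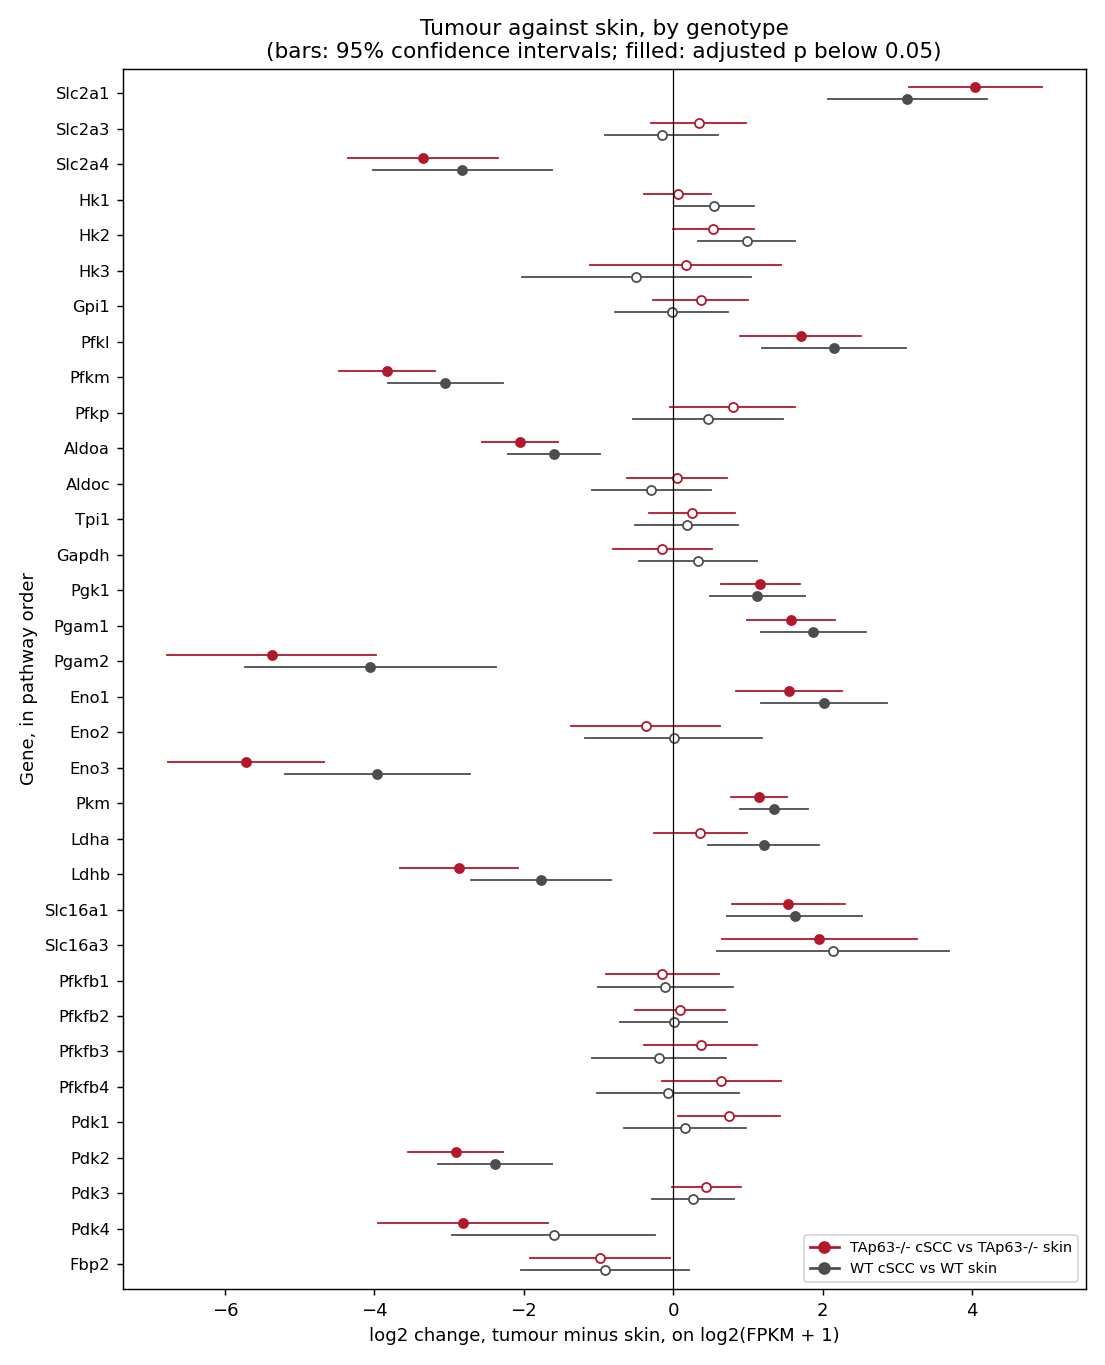
Change of the 34 tested genes between tumour and skin, in pathway order. Each point is the log2 change in 1 genotype with its 95% confidence interval, filled where the adjusted p was below 0.05. In both genotypes Slc2a1 lies farthest to the right (4.04 in TAp63-/- cSCC and 3.13 in WT cSCC), while Pgam2 (-5.38 and -4.05) and Eno3 (-5.72 and -3.96) lie farthest to the left.

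The WT calls rest on 2 tumours. Without WT cSCC replicate 1, 6 members were called, and the calls of Slc2a4, Pfkl, Aldoa, Pgk1, Pgam1, Pgam2, Eno1, Ldha, Ldhb and Slc16a1 ended. Without WT cSCC replicate 2 the call of Slc16a1 ended and Slc16a3 was called (3.02, limma adjusted p = 0.0397). Leaving out WT skin replicate 1 ended the calls of Pgk1, Ldha and Slc16a1, and leaving out WT skin replicate 2 or WT skin replicate 3 ended those of Pgk1, Ldha, Ldhb and Slc16a1. With sex as a covariate, a fit chosen after seeing the data, 10 members were called in TAp63-/- cSCC (Slc2a1, Pgam1 and Pkm higher, Slc2a4, Pfkm, Aldoa, Pgam2, Eno3, Ldhb and Pdk2 lower) and 1 in WT cSCC (Pgam1). That fit reads sex from TAp63-/- cSCC replicate 1, which is the only male tumour.

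Slc2a1 encodes GLUT1, the transporter that carries glucose into most epithelial cells at rest. The gene (mm10, chromosome 4, 119108711 to 119137330, plus strand) had 1168, 401, 1101 and 1245 FPKM in TAp63-/- cSCC and 862 and 477 FPKM in WT cSCC, against 55.4, 67.7 and 40.3 FPKM in TAp63-/- skin and 57.1, 66.8 and 98.3 FPKM in WT skin. Every tumour lay above every skin library, by a factor of 13.6 between the means of the 6 tumours and the 6 skin libraries. The log2 change was 4.04 ± 0.40 (SE, limma adjusted p = 6.28e-05) in TAp63-/- cSCC and 3.13 ± 0.48 (SE, limma adjusted p = 0.00299) in WT cSCC. TAp63-/- cSCC replicate 2 and WT cSCC replicate 2 were the lowest tumours, and both stood well above WT skin replicate 3, the highest skin library.

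Slc2a4 encodes GLUT4, which insulin brings to the surface of muscle and fat cells. It had 2.69, 6.39, 0.498 and 1.39 FPKM in TAp63-/- cSCC and 2.00 and 4.96 FPKM in WT cSCC, against 34.9, 32.8 and 25.7 FPKM in TAp63-/- skin and 26.4, 36.6 and 25.0 FPKM in WT skin, with no overlap between tumour and skin. It fell, with log2 changes of -3.34 ± 0.46 (SE, limma adjusted p = 0.000438) in TAp63-/- cSCC and -2.82 ± 0.54 (SE, limma adjusted p = 0.00869) in WT cSCC. Slc2a1 therefore made up 97.7% to 99.8% of the summed FPKM of these transporters in the tumours, against 59.9% to 79.1% in skin. Slc2a3, the neuronal and leukocyte transporter, stayed between 0.407 and 2.90 FPKM in tumours, against 0.67 and 2.21 FPKM in skin, and passed no test.

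The 250 bases before the RefSeq start of Slc2a1 are shown because the short HIF core, ACGTG or GCGTG on either strand, is a known feature of promoters that this factor switches on. They span chr4:119108495-119108744 (plus strand) of GRCm38.p6, and capitals mark the matches, which begin 61 and 36 bases before the start.
Slc2a1: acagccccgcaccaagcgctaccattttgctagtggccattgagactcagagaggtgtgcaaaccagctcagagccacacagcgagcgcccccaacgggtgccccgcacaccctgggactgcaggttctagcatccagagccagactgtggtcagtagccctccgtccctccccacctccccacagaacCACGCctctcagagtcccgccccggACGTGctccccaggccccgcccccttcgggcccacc
A match is a description of the letters and no evidence of binding.

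Hexokinase traps glucose by phosphorylation. Its summed level was 51.8 ± 9.8 FPKM in the 6 tumours and 35.1 ± 4.3 FPKM in the 6 skin libraries (SD). The sums did not overlap, but that rested on Hk3 at 11.2 FPKM in TAp63-/- cSCC replicate 2. In that tumour Hk1 (12.9 FPKM) and Hk2 (23.2 FPKM) both lay below TAp63-/- skin replicate 1 (17.0 and 23.6 FPKM). Neither Hk1 nor Hk2, the form induced in many tumours and also found in muscle, passed the test in either genotype, and the nearest was Hk2 in WT cSCC (0.98 ± 0.29 SE, limma adjusted p = 0.0538). Hk2 had 28.2, 23.2, 24.9 and 31.9 FPKM in TAp63-/- cSCC and 22.7 and 46.9 FPKM in WT cSCC, against 23.6, 17.6 and 14.5 FPKM in TAp63-/- skin and 15.1, 15.9 and 17.3 FPKM in WT skin. Hk1 had 12.9 to 23.9 FPKM in tumours and 13.5 to 17.0 FPKM in skin. The leukocyte form Hk3 stayed at or below 2.62 FPKM except in TAp63-/- cSCC replicate 2, with 11.2 FPKM. Gpi1, which turns glucose-6-phosphate into fructose-6-phosphate, had 435 to 1032 FPKM in tumours and 390 to 700 FPKM in skin and passed no test.

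Phosphofructokinase, the main control point of glycolysis, is built from liver (Pfkl), platelet (Pfkp) and muscle (Pfkm) subunits. The summed level overlapped between tumour and skin (171 ± 61 FPKM in tumours and 159 ± 23 FPKM in skin, SD, n = 6 each), but the subunits changed places. Pfkm (mm10, chromosome 15, 98092589 to 98132447, plus strand) had 7.84, 5.54, 3.59 and 4.51 FPKM in TAp63-/- cSCC and 5.54 and 14.2 FPKM in WT cSCC, against 104, 81.1 and 78.3 FPKM in TAp63-/- skin and 79.1, 89.4 and 76.7 FPKM in WT skin. Tumours and skin stood far apart, and Pfkm fell, with log2 changes of -3.83 ± 0.29 (SE, limma adjusted p = 1.45e-05) in TAp63-/- cSCC and -3.05 ± 0.35 (SE, limma adjusted p = 0.000737) in WT cSCC. Pfkl had 42.4, 37.1, 99.9 and 77.2 FPKM in TAp63-/- cSCC and 111 and 59.3 FPKM in WT cSCC, against 20.9, 14.3 and 17.6 FPKM in TAp63-/- skin and 13.8, 15.5 and 25.2 FPKM in WT skin. It rose by 1.71 ± 0.37 (SE, limma adjusted p = 0.00651) and 2.15 ± 0.44 (SE, limma adjusted p = 0.0112) in the same comparisons, and all 6 tumours exceeded all skin libraries. Pfkp had 64.2, 43.9, 127 and 146 FPKM in TAp63-/- cSCC and 91.2 and 83.0 FPKM in WT cSCC, against 69.7, 37.9 and 43.6 FPKM in TAp63-/- skin and 64.5, 52.6 and 72.1 FPKM in WT skin. Its values overlapped between the tissues and passed neither test. Pfkm was 4.75% ± 3.1 of the summed subunits in tumours and 53.6% ± 5.8 in skin, while Pfkl was 41.4% ± 6.9 and 11.2% ± 2.0 (SD, n = 6 each).

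Aldolase splits fructose-1,6-bisphosphate, and Aldoa, the form of muscle and most other tissues, made up over 98% of its summed FPKM in every library. Aldoa had 613, 451, 509.5 and 586 FPKM in TAp63-/- cSCC and 606 and 846 FPKM in WT cSCC, against 3085, 1815 and 1969 FPKM in TAp63-/- skin and 2154, 2062 and 2282 FPKM in WT skin. Every tumour lay below every skin library, and Aldoa fell, with log2 changes of -2.05 ± 0.23 (SE, limma adjusted p = 0.000139) in TAp63-/- cSCC and -1.59 ± 0.28 (SE, limma adjusted p = 0.00536) in WT cSCC. The minor form Aldoc did not fill the gap: summed aldolase was 608 ± 135 FPKM in tumours and 2234 ± 449 FPKM in skin (SD, n = 6 each). Aldoc, the brain form, had 5.51, 2.71, 8.09 and 8.84 FPKM in TAp63-/- cSCC and 6.80 and 5.29 FPKM in WT cSCC, against 6.60, 4.67 and 5.70 FPKM in TAp63-/- skin and 6.60, 7.26 and 9.04 FPKM in WT skin. Its tumour and skin values overlapped and passed no test.

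Of the next 3 steps Pgk1 passed. Triosephosphate isomerase (Tpi1) had 204 to 462 FPKM in tumours and 189 to 285 FPKM in skin, and glyceraldehyde-3-phosphate dehydrogenase (Gapdh), often used as a loading control, had 1349 to 3262 FPKM in tumours and 1298 to 2154 FPKM in skin. Neither passed a test. Pgk1, which makes the first ATP of the pathway, had 168, 299, 355 and 325 FPKM in TAp63-/- cSCC and 300.3 and 235 FPKM in WT cSCC, against 119, 131 and 118 FPKM in TAp63-/- skin and 122, 128 and 114 FPKM in WT skin. The tissues did not overlap, and Pgk1 rose by 1.16 ± 0.24 (SE, limma adjusted p = 0.00533) in TAp63-/- cSCC and 1.13 ± 0.29 (SE, limma adjusted p = 0.0304) in WT cSCC.

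At phosphoglycerate mutase both partners moved, while their sum overlapped between tissues (284 ± 77 FPKM in tumours and 373 ± 66 FPKM in skin, SD, n = 6 each). The muscle form Pgam2 (mm10, chromosome 11, 5801640 to 5803733, minus strand) had 19.5, 7.08, 3.10 and 2.48 FPKM in TAp63-/- cSCC and 6.53 and 37.4 FPKM in WT cSCC, against 390.3, 190.4 and 324 FPKM in TAp63-/- skin and 280.0, 289 and 274 FPKM in WT skin. It fell, with log2 changes of -5.38 ± 0.64 (SE, limma adjusted p = 0.000184) in TAp63-/- cSCC and -4.05 ± 0.76 (SE, limma adjusted p = 0.00779) in WT cSCC. WT cSCC replicate 2 held the most of it among tumours and was still far below skin. The widely expressed form Pgam1 (mm10, chromosome 19, 41911871 to 41918664, plus strand) had 334, 164, 299 and 222 FPKM in TAp63-/- cSCC and 368 and 243 FPKM in WT cSCC, against 67.8, 78.8 and 102 FPKM in TAp63-/- skin and 77.8, 94.4 and 71.7 FPKM in WT skin. It rose by 1.58 ± 0.27 (SE, limma adjusted p = 0.00168) and 1.88 ± 0.32 (SE, limma adjusted p = 0.00475) in the same comparisons, and its share of the step was 86.7% to 99.0% in tumours and 14.8% to 29.3% in skin.

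Enolase, which makes phosphoenolpyruvate, showed the same exchange. The muscle form Eno3 (mm10, chromosome 11, 70657202 to 70662513, plus strand) had 9.94, 10.9, 5.04 and 3.29 FPKM in TAp63-/- cSCC and 9.62 and 45.3 FPKM in WT cSCC, against 498, 332 and 387 FPKM in TAp63-/- skin and 321, 344 and 368 FPKM in WT skin. It fell, with log2 changes of -5.72 ± 0.47 (SE, limma adjusted p = 2.27e-05) in TAp63-/- cSCC and -3.96 ± 0.56 (SE, limma adjusted p = 0.00202) in WT cSCC. Eno1 (mm10, chromosome 4, 150236721 to 150248879, plus strand), the form of most tissues, had 695, 675, 1349 and 1493 FPKM in TAp63-/- cSCC and 1883 and 1158 FPKM in WT cSCC, against 366, 263 and 391 FPKM in TAp63-/- skin and 334, 370.1 and 389 FPKM in WT skin. Every tumour exceeded every skin library, and Eno1 rose by 1.55 ± 0.32 (SE, limma adjusted p = 0.00533) and 2.02 ± 0.38 (SE, limma adjusted p = 0.00813). Skin held the forms in near equal amounts, with Eno3 at 48.1% to 57.5% of summed enolase, against 0.22% to 3.76% in tumours. Eno2, the neuronal form, was at most 4.78 FPKM in tumours and 2.27 FPKM in skin and passed no test.

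**Figure D2:**
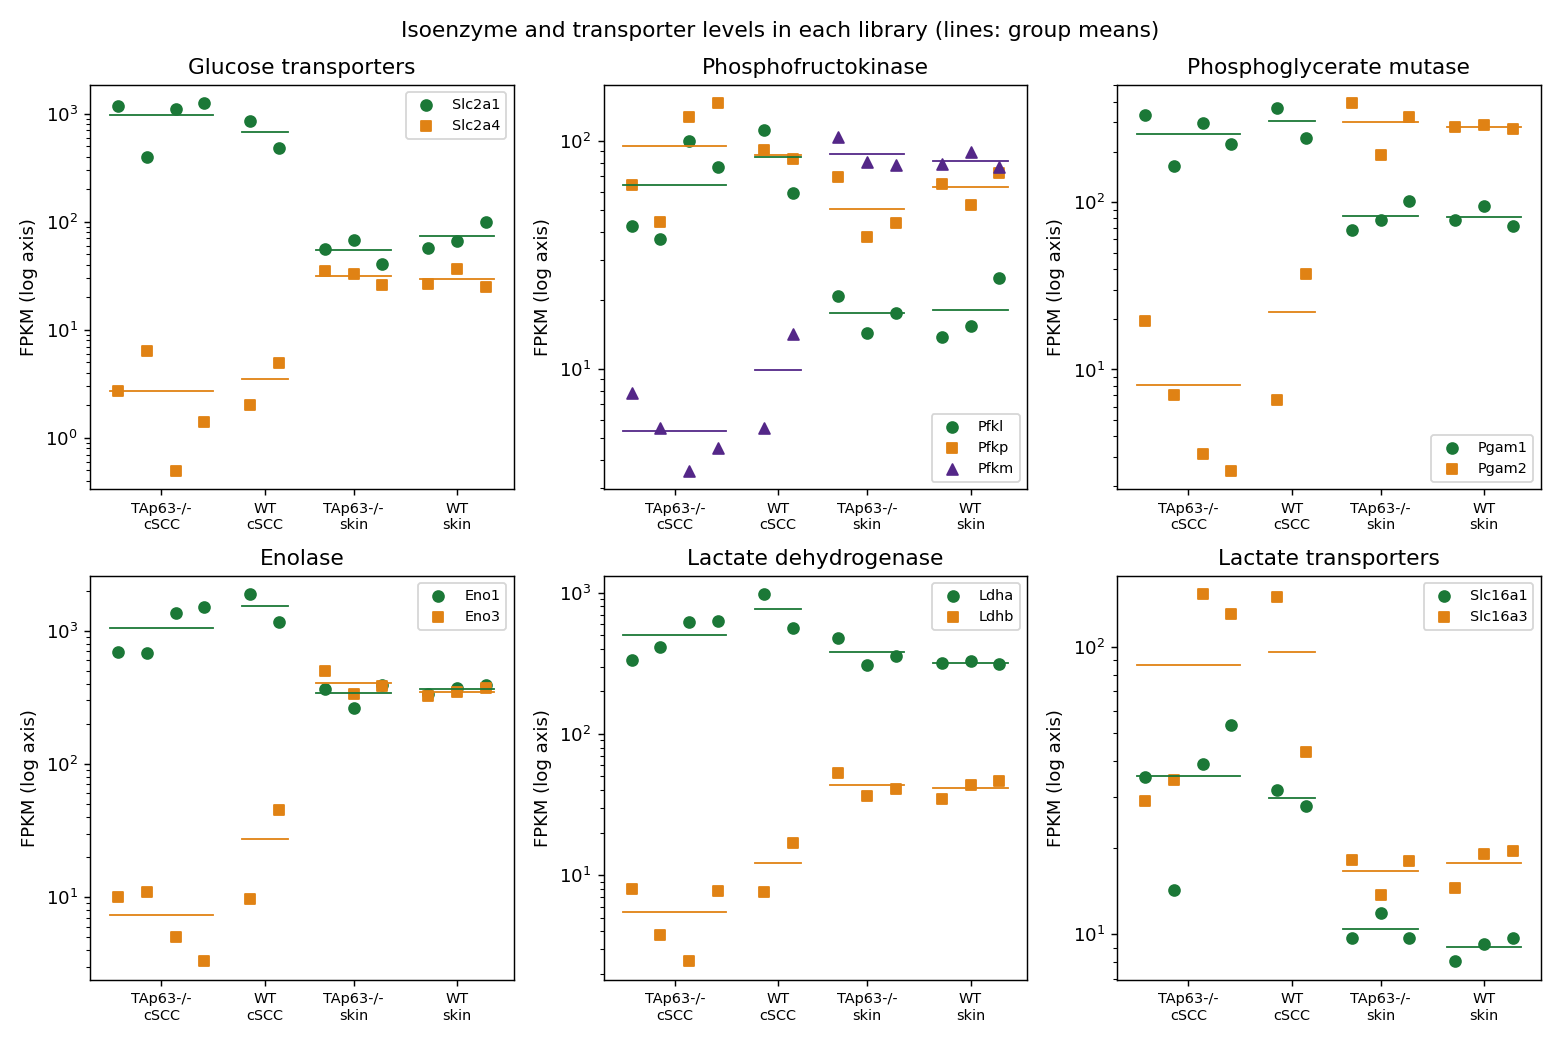
FPKM of isoenzyme and transporter genes in each library on a log axis, by group, with lines at group means. In the panels for phosphoglycerate mutase and enolase the muscle forms (squares) lie at 2.48 to 45.3 FPKM in tumours and 190.4 to 498 FPKM in skin, while Pgam1 and Eno1 (circles) are higher in tumours.

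The promoters of these mutase and enolase partners are shown side by side because the members of each pair moved in opposite directions. Each line is the 250 bases before a RefSeq start in GRCm38.p6, with HIF core matches in capitals: Pgam1 at chr19:41911621-41911870 (plus strand), Pgam2 at chr11:5803797-5804046 (minus strand), Eno1 at chr4:150236947-150237196 (plus strand) and Eno3 at chr11:70656926-70657175 (plus strand).
Pgam1: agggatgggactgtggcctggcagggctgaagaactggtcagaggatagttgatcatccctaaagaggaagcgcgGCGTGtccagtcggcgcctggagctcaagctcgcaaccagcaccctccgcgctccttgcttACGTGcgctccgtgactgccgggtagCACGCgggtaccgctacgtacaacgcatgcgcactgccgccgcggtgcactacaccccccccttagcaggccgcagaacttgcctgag
Pgam2: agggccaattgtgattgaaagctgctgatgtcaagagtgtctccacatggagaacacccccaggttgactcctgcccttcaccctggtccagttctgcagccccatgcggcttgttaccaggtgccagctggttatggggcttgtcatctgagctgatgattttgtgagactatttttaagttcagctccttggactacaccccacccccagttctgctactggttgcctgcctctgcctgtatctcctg
Eno1: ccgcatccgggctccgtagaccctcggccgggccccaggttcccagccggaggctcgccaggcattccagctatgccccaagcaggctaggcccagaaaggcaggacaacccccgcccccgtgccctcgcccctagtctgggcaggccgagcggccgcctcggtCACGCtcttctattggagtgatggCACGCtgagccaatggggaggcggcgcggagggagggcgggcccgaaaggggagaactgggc
Eno3: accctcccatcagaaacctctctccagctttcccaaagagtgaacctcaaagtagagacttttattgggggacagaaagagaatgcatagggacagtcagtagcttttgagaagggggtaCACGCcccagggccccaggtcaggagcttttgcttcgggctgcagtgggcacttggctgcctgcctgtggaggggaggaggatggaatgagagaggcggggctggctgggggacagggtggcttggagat
Pgam1 held 3 matches, Eno1 held 2, Eno3 held 1 and Pgam2 held none. The Eno1 line is 1 of 3 RefSeq starts, of which 2 had their transcribed bases in a GENCODE transcript of the gene, the printed one included. The printed window lies inside the Eno1 span given above, which starts at 150236721. The window before that start, chr4:150236458-150236707, is not printed. It held 1 match, and its transcribed bases were in no such transcript. The single windows of Pgam1, Pgam2 and Eno3 had no such transcript match. Of the 33 members with a RefSeq promoter (53 windows, none for Slc2a3 and Slc2a4), 28 held the core in at least 1 window (84.8%), against 41.5% of all 27025 genes with a promoter in the table. Members had more windows per gene, which favours them in that count. By window the core was in 71.7% of the members' windows and 38.6% of all 32851. All 9 members that rose in either tumour comparison held it, and so did 6 of the 7 that fell. The median GC content of the members' windows was 58.4%, against 52.4% over all windows, and the part of base composition in the match counts was not tested. The E-box CANNTG, a palindrome and so the same on either strand, was in 66.7% of the members' promoters and 69.3% of all. For the MEF2 site of muscle promoters only 1 strict form was searched for, which was in 0 of the 33 and in 0.592% of all. Wider forms of that site were not searched for, so this count does not show that the members' promoters lack it.

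Pyruvate kinase makes the last ATP of glycolysis. Pkm had 633, 700.3, 812 and 756 FPKM in TAp63-/- cSCC and 916 and 671 FPKM in WT cSCC, against 321, 338 and 317 FPKM in TAp63-/- skin and 304, 338 and 282 FPKM in WT skin. No tumour overlapped with skin, and Pkm rose by 1.15 ± 0.17 (SE, limma adjusted p = 0.000811) and 1.35 ± 0.21 (SE, limma adjusted p = 0.00291) in TAp63-/- cSCC and WT cSCC. The table gives Pkm as 1 gene, so its muscle and tumour splice forms, PKM1 and PKM2, were not told apart. Pklr was listed at 0 in 11 of 12 libraries and at 0.0125 FPKM in WT skin replicate 2.

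Lactate dehydrogenase turns pyruvate into lactate, and Ldha made up most of it in both tissues. Ldha had 336, 413, 622 and 633 FPKM in TAp63-/- cSCC and 977 and 561 FPKM in WT cSCC, against 480.0, 308 and 358 FPKM in TAp63-/- skin and 316, 330.3 and 312 FPKM in WT skin. Tumour and skin overlapped: it differed by 0.36 ± 0.28 (SE, limma adjusted p = 0.362) in TAp63-/- cSCC and rose by 1.21 ± 0.34 (SE, limma adjusted p = 0.0418) in WT cSCC. The difference between those changes was -0.85 ± 0.44 (SE, limma adjusted p = 0.9998), so it did not pass. Ldhb, the form that favours pyruvate, had 7.98, 3.80, 2.45 and 7.76 FPKM in TAp63-/- cSCC and 7.66 and 16.8 FPKM in WT cSCC, against 52.6, 36.4 and 41.0 FPKM in TAp63-/- skin and 34.8, 43.6 and 46.6 FPKM in WT skin. Every tumour lay below every skin library, and Ldhb fell, with log2 changes of -2.87 ± 0.36 (SE, limma adjusted p = 0.000241) in TAp63-/- cSCC and -1.77 ± 0.43 (SE, limma adjusted p = 0.0241) in WT cSCC. Its share of summed lactate dehydrogenase was 0.393% to 2.91% in tumours and 9.88% to 13.0% in skin.

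Lactate leaves through MCT1 (Slc16a1) and MCT4 (Slc16a3, the export form of glycolytic cells), whose summed FPKM was 123 ± 69 in tumours and 26.9 ± 2.4 in skin (SD, n = 6 each). Slc16a1 had 35.3, 14.2, 39.3 and 53.3 FPKM in TAp63-/- cSCC and 31.9 and 27.9 FPKM in WT cSCC, against 9.71, 11.9 and 9.74 FPKM in TAp63-/- skin and 8.05, 9.27 and 9.74 FPKM in WT skin. It rose by 1.54 ± 0.34 (SE, limma adjusted p = 0.00801) and 1.63 ± 0.41 (SE, limma adjusted p = 0.029), with no overlap between tissues. Slc16a3 had 29.0, 34.4, 153 and 130.1 FPKM in TAp63-/- cSCC and 149.6 and 43.1 FPKM in WT cSCC, against 18.2, 13.7 and 18.0 FPKM in TAp63-/- skin and 14.5, 19.0 and 19.4 FPKM in WT skin. The tumours fell apart into 3 higher libraries (TAp63-/- cSCC replicates 3 and 4 and WT cSCC replicate 1, at 130.1 to 153 FPKM) and 3 lower ones (29.0 to 43.1 FPKM), and the lower libraries still exceeded all skin libraries. Slc16a3 rose by 1.96 ± 0.59 (SE, limma adjusted p = 0.0317) in TAp63-/- cSCC, and its 2.14 ± 0.71 (SE) in WT cSCC did not pass (limma adjusted p = 0.0757). The TAp63-/- call lay close to the threshold: it ended without TAp63-/- cSCC replicate 3 or 4, without any 1 of the TAp63-/- skin libraries, with no filter on low values, and with only those 2 groups in the fit (limma adjusted p from 0.0585 to 0.0956).

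Pyruvate dehydrogenase kinases (PDK) shut the enzyme that feeds pyruvate to the mitochondria. Their summed FPKM was 55.5 ± 9.7 in tumours and 94.9 ± 23 in skin (SD, n = 6 each). Pdk2, common in muscle and liver, had 7.89, 3.76, 2.82 and 3.88 FPKM in TAp63-/- cSCC and 6.09 and 8.95 FPKM in WT cSCC, against 53.0, 30.5 and 36.1 FPKM in TAp63-/- skin and 38.3, 45.6 and 45.1 FPKM in WT skin. It fell, with log2 changes of -2.91 ± 0.29 (SE, limma adjusted p = 6.12e-05) in TAp63-/- cSCC and -2.39 ± 0.34 (SE, limma adjusted p = 0.00211) in WT cSCC, with no overlap. Pdk4, induced by fasting in muscle, had 3.67, 3.65, 1.18 and 1.37 FPKM in TAp63-/- cSCC and 3.88 and 4.95 FPKM in WT cSCC, against 54.3, 8.86 and 20.9 FPKM in TAp63-/- skin and 14.6, 10.7 and 22.9 FPKM in WT skin. TAp63-/- skin replicate 1 held the most of it, at 54.3 FPKM. Pdk4 fell by 2.81 (SE 0.52) in TAp63-/- cSCC (limma adjusted p = 0.00275), and its -1.60 ± 0.62 (SE) in WT cSCC did not pass (limma adjusted p = 0.118). Pdk1, a HIF target, had 35.5, 21.7, 51.7 and 38.3 FPKM in TAp63-/- cSCC and 34.0 and 15.9 FPKM in WT cSCC, against 23.3, 22.3 and 16.7 FPKM in TAp63-/- skin and 20.1, 18.0 and 25.1 FPKM in WT skin. It overlapped between tissues and did not pass, at 0.75 ± 0.31 (SE, limma adjusted p = 0.0973) in TAp63-/- cSCC and 0.15 ± 0.37 (SE, limma adjusted p = 0.829) in WT cSCC. With Pdk2 and Pdk4 lower, Pdk1 was 57.3% ± 13 of summed PDK in tumours and 22.7% ± 4.9 in skin (SD, n = 6 each).

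The fructose-2,6-bisphosphate enzymes Pfkfb1 to Pfkfb4, which tune phosphofructokinase, passed no test in either genotype, and their summed FPKM was 33.0 ± 5.3 in tumours and 30.6 ± 8.7 in skin (SD, n = 6 each). Pfkfb3, the form linked to proliferating cells, had 12.1 to 19.2 FPKM in tumours and 7.95 to 27.1 FPKM in skin. The other forms ran from 1.90 to 11.99 FPKM in tumours and from 2.13 to 8.10 FPKM in skin. Pdk3 also passed no test, at 11.8 to 18.8 FPKM in tumours and 8.02 to 13.3 FPKM in skin. Fbp2, the muscle enzyme that runs the aldolase substrate back towards glucose, was listed at 0 in TAp63-/- cSCC replicate 3 and was at most 0.906 FPKM in the other tumours, against 0.411 to 5.08 FPKM in skin. Its values overlapped between the tissues and passed neither test.

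**Figure D3:**
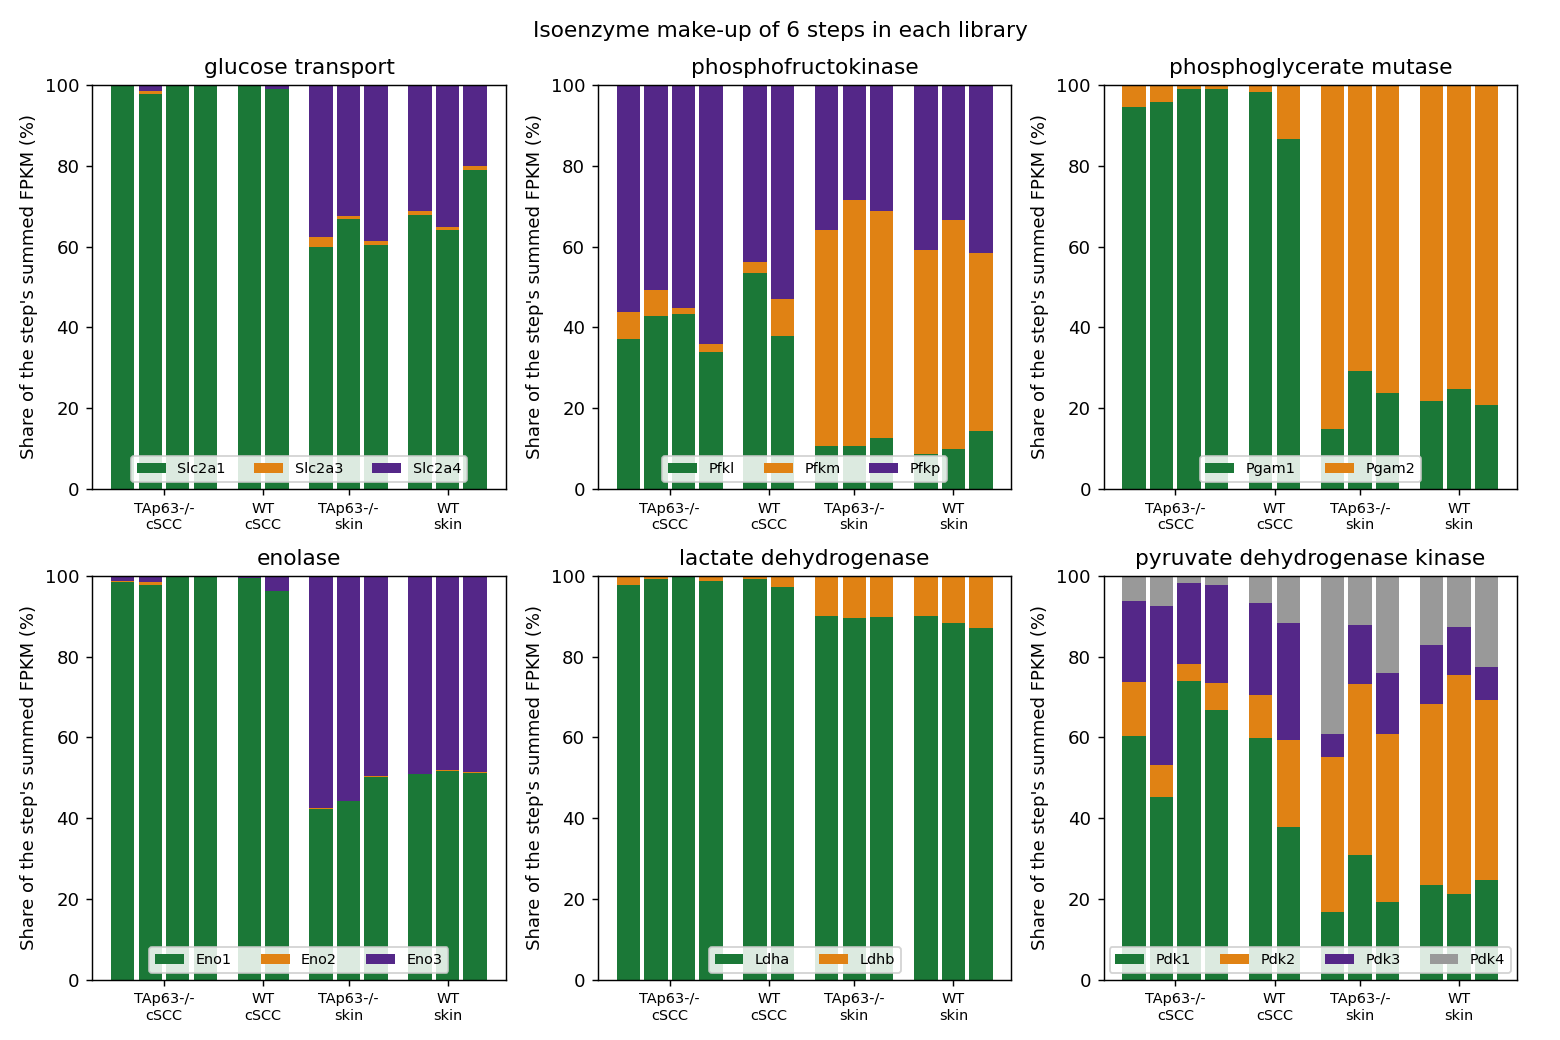
Share of each isoenzyme in the summed FPKM of its step, in each library. Slc2a4, Pfkm, Pgam2, Eno3 and Ldhb take smaller shares in every tumour than in any skin library, for example Pgam2 at 1.03% to 13.3% in tumours and 70.7% to 85.2% in skin.

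A single scale factor for a library cancels in ratios of isoenzymes within it, apart from the added 1 FPKM. The quantile normalization inferred from the values is no such factor and can change these ratios. A total of 11 pairs were compared between the 6 tumours and the 6 skin libraries. An exact permutation test of tissue labels within genotype, two-sided, gave p = 0.00286 for 8 pairs, the smallest value that 350 permutations can give (adjusted p = 0.00393 over the 11). The log2 ratio was higher in tumours by 6.67 for Slc2a1 over Slc2a4, 6.62 for Eno1 over Eno3, 6.44 for Pgam1 over Pgam2, 5.37 for Pfkl over Pfkm, 4.07 for Pfkp over Pfkm, 2.66 for Pdk1 over Pdk4 and 1.70 for Aldoc over Aldoa. For Ldhb over Ldha it was lower in tumours, with a difference of -3.11. In all 8 pairs no tumour overlapped with any skin library. For Slc2a1 over Slc2a4, Pfkl over Pfkm, Pgam1 over Pgam2 and Eno1 over Eno3 this outcome was fixed beforehand. Each of those genes alone already separated the tissues, and the partners did so in opposite directions. All ratios reuse the single-gene values, with Pfkm in both phosphofructokinase pairs, and so add no separate support. The ratios Hk1 over Hk2 (-0.45, exact permutation adjusted p = 0.0698), Slc16a1 over Slc16a3 (-0.46, adjusted p = 0.317) and Pfkfb3 over Pfkfb1 (0.21, adjusted p = 0.46) did not pass. Over single genes, 16 of the 34 tested members (47.1%) had tumour and skin values that did not overlap, and 21.8% of all tested genes did.

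Markers of skeletal muscle were lower in tumours beside the members that fell. All 15 muscle markers tested (such as Ckm, Myh4 and Actn3) fell in TAp63-/- cSCC, with a median log2 change of -5.99, and 13 of 15 fell in WT cSCC, with a median of -4.59. Their summed level was 96.5 to 1339.7 FPKM in tumours and 13944 to 21976 FPKM in skin, and none of them was at 0 in all tumours. Among tumours the mean log2(FPKM + 1) of the markers was highest in WT cSCC replicate 2 (5.85), which also had the most RNA of 7 of the 8 members that fell. The exception was Slc2a4, highest among tumours in TAp63-/- cSCC replicate 2. The mean of the markers was lowest in TAp63-/- cSCC replicates 3 and 4 (2.41 and 2.82), which also had the least Pgam2, Eno3, Pfkm, Slc2a4 and Pdk4. That did not hold for Aldoa, lowest in TAp63-/- cSCC replicate 2, nor for Ldhb and Pdk2, of which TAp63-/- cSCC replicate 2 had less than replicate 4. Adipocyte markers fell as well, 7 of 8 in TAp63-/- cSCC and 4 of 8 in WT cSCC, at a summed 60.1 to 2749.8 FPKM in tumours and 1319.7 to 6349 FPKM in skin. The part of muscle and fat in the lower Slc2a4, Pfkm, Pgam2, Eno3, Aldoa, Ldhb, Pdk2 and Pdk4 was not tested, and in whole tissue fewer cells of a type and less RNA per cell cannot be told apart.

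**Figure D4:**
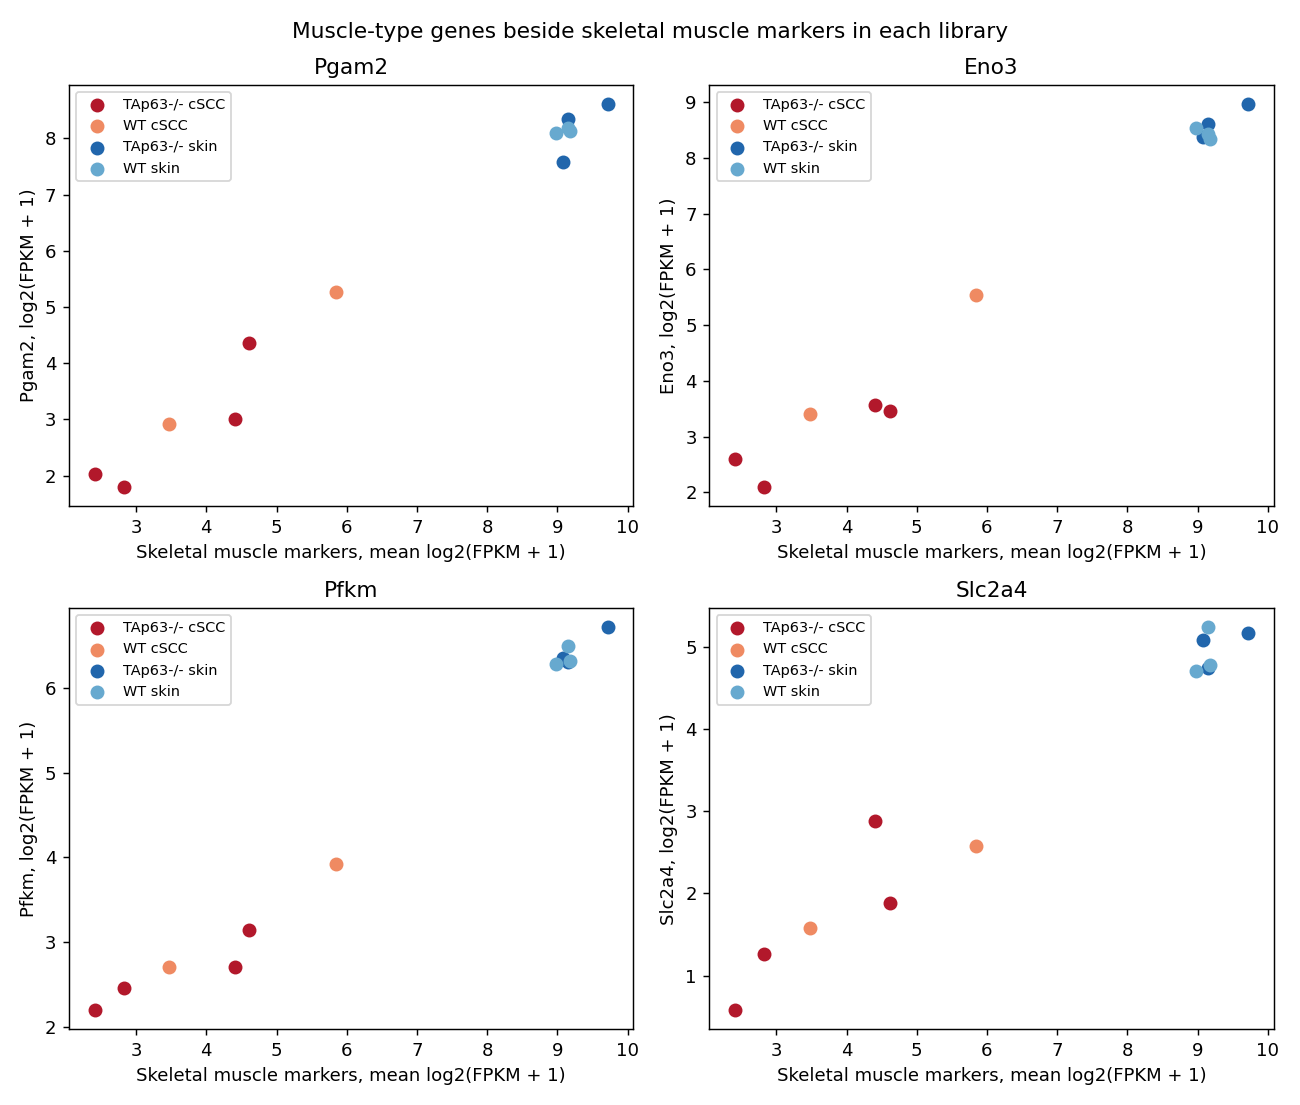
Level of 4 muscle-type genes against the mean of 15 skeletal muscle markers, both as log2(FPKM + 1), 1 point per library. The tumours lie between 2.41 and 5.85 on the marker axis and the skin libraries between 8.98 and 9.72, and WT cSCC replicate 2 is the tumour closest to skin.

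Keratinocyte markers differed by layer. Wound keratinocyte keratins (Krt6a, Krt6b, Krt16, Krt17) rose in 3 of 4 cases in each genotype, and their summed level was 5003 to 24578 FPKM in tumours and 427 to 1309 FPKM in skin. Basal keratinocyte markers rose in 4 of 5 cases in TAp63-/- cSCC and in 1 of 5 in WT cSCC. Of the suprabasal keratins Krt1 and Krt10, Krt10 fell in TAp63-/- cSCC and neither passed in WT cSCC, and their summed level was 595 to 5916 FPKM in tumours and 1998 to 6464 FPKM in skin. Neutrophil markers were low, at a summed 6.33 to 26.1 FPKM in tumours and 0.99 to 2.76 FPKM in skin, with Ly6g, Mpo and Camp under 1 FPKM in every tumour. Of the 2 tested, Cxcr2 and Csf3r, both rose in TAp63-/- cSCC and Cxcr2 rose in WT cSCC, with median log2 changes of 2.05 and 1.90. Of the 5 macrophage markers tested, 1 fell in TAp63-/- cSCC and none passed in WT cSCC, and no endothelial or erythroid marker passed in either. Fibroblast markers fell in 4 of 5 cases in TAp63-/- cSCC and in 2 of 5 in WT cSCC, and all 4 Schwann cell markers fell in both. No hair follicle marker passed, though the median log2 changes were -3.46 in TAp63-/- cSCC and -2.90 in WT cSCC. Their summed level varied widely within each tissue, at 1.33 to 2644 FPKM in tumours and 6.74 to 3763 FPKM in skin. WT cSCC replicate 2 was the highest tumour. The part of the cell mixture in the rises was not tested.

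No member passed a test of genotype, in skin or in tumours. In TAp63-/- against WT skin 0 of 34 were called by limma, 0 at an unadjusted p below 0.05, while 0.0203% of all tested genes were called (3 genes, with 738 at an unadjusted p below 0.05). Changes of the members ran from -0.44 to 0.48 on the log2 scale. The smallest p was that of Aldoc (-0.38, 95% interval -0.80 to 0.05, limma adjusted p = 0.923), and the interval of Slc2a1 ran from -1.09 to 0.23. In TAp63-/- against WT cSCC 0 of 34 were called by limma and 0 at an unadjusted p below 0.05, while 0% of all tested genes were called (419 at an unadjusted p below 0.05). The member with the smallest p was Eno3, at -1.54 (95% interval -3.16 to 0.08, limma adjusted p = 1). WT cSCC replicate 2, at 45.3 FPKM, lay above the other 5 tumours, at 3.29 to 10.9 FPKM, and also held the most muscle marker RNA. The intervals between tumours are wide, since 4 were set against 2.

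The change between tumour and skin was not shown to differ between genotypes for any member. In the genotype by tissue interaction 0 of 34 were called by limma and 1 at an unadjusted p below 0.05, while 0.0271% of all tested genes were called (4 genes, with 444 at an unadjusted p below 0.05). That 1 was Eno3, with a TAp63-/- minus WT difference of -1.76 on the log2 scale (95% interval -3.38 to -0.14, limma adjusted p = 0.9998). Both tumour-skin comparisons have skin controls of their own genotype.

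Genes of glycogen metabolism, which feeds glucose-6-phosphate to muscle glycolysis, were mostly lower in tumours. The counts of this list and of those that follow stand beside 27.2% of all tested genes called in TAp63-/- cSCC and 11.4% in WT cSCC. Of 15 genes 12 fell and none rose in TAp63-/- cSCC, and 9 fell and none rose in WT cSCC, with a median change of -2.21 and -1.47. The muscle phosphorylase Pygm had 1.48 to 49.3 FPKM in tumours and 234 to 514 FPKM in skin and changed by -5.80 ± 0.67 (SE, limma adjusted p = 0.000165) in TAp63-/- cSCC and -4.02 ± 0.81 (SE, limma adjusted p = 0.0105) in WT cSCC. Ppp1r3a, which brings a phosphatase to muscle glycogen, changed by -3.83 ± 0.31 (SE, limma adjusted p = 2.11e-05) in TAp63-/- cSCC and -2.85 ± 0.37 (SE, limma adjusted p = 0.00125) in WT cSCC. Skeletal muscle markers fell beside them, by the values above, and their part was not tested.

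On the way of pyruvate into mitochondria, 7 of 10 genes fell and none rose in TAp63-/- cSCC, and 3 of 10 fell and none rose in WT cSCC. Mpc1, a subunit of the mitochondrial pyruvate carrier, had 11.8 to 32.2 FPKM in tumours and 64.5 to 84.1 FPKM in skin, and changed by -2.07 ± 0.23 (SE, limma adjusted p = 0.000127) in TAp63-/- cSCC and -1.44 ± 0.28 (SE, limma adjusted p = 0.00842) in WT cSCC. The pyruvate dehydrogenase phosphatase Pdp1 changed by -0.85 ± 0.18 (SE, limma adjusted p = 0.00582) and -1.15 ± 0.21 (SE, limma adjusted p = 0.0073), and its regulatory subunit Pdpr by -0.92 ± 0.23 (SE, limma adjusted p = 0.0146) and -1.04 ± 0.28 (SE, limma adjusted p = 0.0361). Branches that leave glycolysis for biosynthesis were also counted. Of 7 pentose phosphate genes only Taldo1 was called, which fell by 0.70 on the log2 scale in TAp63-/- cSCC (limma adjusted p = 0.0205). Of 5 serine pathway genes Shmt2 rose by 1.30 ± 0.24 (SE, limma adjusted p = 0.00309) in TAp63-/- cSCC and 1.17 ± 0.29 (SE, limma adjusted p = 0.0273) in WT cSCC, and Psat1 by 1.20 ± 0.31 (SE, limma adjusted p = 0.0334) in WT cSCC.

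Known HIF targets outside glycolysis rose in 7 of 13 cases in TAp63-/- cSCC and in 3 of 13 in WT cSCC, and none fell. Vegfa, the vessel growth factor, had 34.0 to 71.1 FPKM in tumours and 7.75 to 11.5 FPKM in skin and rose by 2.18 ± 0.24 (SE, limma adjusted p = 0.000128) and 2.21 ± 0.29 (SE, limma adjusted p = 0.00132). Car9, an acid-exporting carbonic anhydrase, rose by 2.97 ± 0.51 (SE, limma adjusted p = 0.00182) in TAp63-/- cSCC, and its 1.67 ± 0.61 (SE, limma adjusted p = 0.101) in WT cSCC did not pass. Ankrd37 rose by 1.08 ± 0.24 (SE, limma adjusted p = 0.00769) and 1.12 ± 0.29 (SE, limma adjusted p = 0.0293). Bnip3, Egln1, P4ha1, P4ha2, Ddit4 and Kdm3a passed in neither.

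Among 12 tested regulators of glycolysis, 1 rose and 4 fell in TAp63-/- cSCC, and 1 rose and 2 fell in WT cSCC. Hif1a, the oxygen-regulated HIF subunit, had 78.8 to 462 FPKM in tumours and 28.2 to 39.8 FPKM in skin and rose by 2.79 ± 0.49 (SE, limma adjusted p = 0.00207) and 2.10 ± 0.58 (SE, limma adjusted p = 0.0422). Txnip, which removes glucose transporters from the surface, had 11.0 to 55.5 FPKM in tumours and 136 to 237 FPKM in skin and changed by -2.48 ± 0.48 (SE, limma adjusted p = 0.00366) and -2.18 ± 0.57 (SE, limma adjusted p = 0.0336). Ppargc1a, a coactivator of mitochondrial genes in muscle, changed by -1.52 ± 0.36 (SE, limma adjusted p = 0.0112) in TAp63-/- cSCC. Myc and Bsg were named after their values were seen. Myc differed by 1.07 ± 0.39 (SE, limma adjusted p = 0.0652) and 0.99 ± 0.47 (SE, limma adjusted p = 0.196). Bsg, the chaperone of both lactate transporters, had 154 to 241 FPKM in tumours and 153 to 191 FPKM in skin and passed no test.

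Of 12 other transporters and isoenzymes tested, 2 rose and 1 fell in TAp63-/- cSCC, and 1 rose and 1 fell in WT cSCC. With 27.2% and 11.4% of all tested genes called, these counts do not set the list apart. Adpgk, the ADP-dependent glucokinase, rose by 1.17 ± 0.19 (SE, limma adjusted p = 0.00134) and 0.97 ± 0.23 (SE, limma adjusted p = 0.0213), and Slc16a7 (MCT2), the high-affinity lactate and pyruvate importer, changed by -2.62 ± 0.40 (SE, limma adjusted p = 0.000834) and -2.23 ± 0.47 (SE, limma adjusted p = 0.0133). Slc2a9, a urate and hexose transporter, rose by 1.08 ± 0.29 (SE, limma adjusted p = 0.018) in TAp63-/- cSCC. Eno1 and several other members have near-identical retrotransposed copies. For Eno1 the copy Gm5506 is listed on its own, at 22.4 to 59.4 FPKM in tumours and 6.25 to 10.2 FPKM in skin, and how shared reads were divided is not given in the sources used here.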

How the data were processed

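Per the submitters' processing notes, reads were handled with TopHat2 2.0 and Cufflinks 2.0 on mm10. The deposited table holds FPKM per gene, a unit inferred from the tools named and from the values. In each of the 12 columns at least 99.98% of the sorted values at or above 1 FPKM lay within 1% of the common value, from which quantile normalization by the authors was inferred, per the file's values. Read depth is therefore unknown, and no counting interval is given.

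Of 37924 entries, those of the 272 symbols with several entries were summed. Symbols that reached 1 FPKM in 2 or more libraries were put on the log2(FPKM + 1) scale, and limma 3.58.1 was run in R 4.3.3 (variance trend, moderated statistics, two-sided, Benjamini-Hochberg over 14752 genes). Tumour-skin and interaction fits used all 12 libraries, and genotype fits used the 6 of the tissue. The fit was checked on simulated data. Members, gene lists and tests were chosen with earlier results of these data known. Values in every library are given for members called in a tumour-skin comparison whose higher group averaged at least 5 FPKM and for their isoenzyme partners, and the 3 called genes with the smallest p are named from each pathway list, except 1 gene that is not reported here. Gene coordinates are the file's, for mm10, and promoter sequences are RefSeq's for GRCm38.p6, which is mm10. Of the 53 promoter windows, 42 had their transcribed bases in a GENCODE M21 transcript. The alternatives covered the pseudocount, the filter, scaling, listed zeros, array weights, repeated symbols, the libraries in the fit and sex. Figures were drawn with matplotlib 3.10.9.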

Additional observations from a re-analysis of the deposited data

Results flagged for a closer look

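A total of 33 members were screened in the 4 TAp63-/- cSCC libraries for a library whose gap to the nearest other exceeded 0.829 of the group's range, which chance gives in about 1 in 20 groups, and 4 were found. Slc2a1 was low in TAp63-/- cSCC replicate 2 at 401 FPKM, with a gap of 0.83 of the range. In the same tumour Hk3, the leukocyte hexokinase, was high at 11.2 FPKM (gap 0.935) and Eno2, the neuronal enolase, was high at 4.78 FPKM (gap 0.938). That tumour also had the highest mean log2(FPKM + 1) of macrophage markers among the 6 tumours, at 6.26. Skin libraries ran from 4.97 to 6.11 by that measure, with Hk3 at most 2.62 FPKM and Eno2 at most 2.27 FPKM. Its summed neutrophil markers (26.1 FPKM) and adipocyte markers (2749.8 FPKM) were the highest among tumours too. The part of any of these cells in these values was not tested. Tpi1 was high in TAp63-/- cSCC replicate 3 at 462 FPKM (gap 0.833).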

How the results depend on the processing

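The number of genes called moved most. In TAp63-/- cSCC against TAp63-/- skin it was 4017, 1939 with sex as a covariate, and 2424 to 4458 with 1 library left out. Array weights went beyond that range, with 2657 higher and 2355 lower. In WT cSCC against WT skin it was 1687, 255 with the sex covariate, and 463 to 1904 with 1 library left out. With only those 2 groups in the fit 792 were higher and 1157 lower. In skin, genotype gave 3, 5 with a pseudocount of 0.1, 44 with listed zeros as missing, and 3 to 8 with 1 library left out. In tumours it gave 0, 9 with no filter, 13 with listed zeros as missing, 1 with all 12 libraries in the fit, and 0 to 11 with 1 library left out. The interaction gave 4, 24 with listed zeros as missing, and 1 to 11 with 1 library left out. Members called numbered 16 in TAp63-/- cSCC, 10 with the sex covariate and 15 to 19 with 1 library left out, and 15 in WT cSCC, 1 with the sex covariate and 6 to 15 with 1 library left out. No member was called for genotype or for the interaction under any alternative run. The log2 change of Ldha in TAp63-/- cSCC, 0.36, turned to -0.16 with the sex covariate, where it did not pass. With male libraries only it was also -0.16, and no test was run there, since that setting holds 1 tumour. Both settings were chosen after seeing the data. Both rest on TAp63-/- cSCC replicate 1, the only male tumour, and so are not separate checks. The log2 ratio of Pfkfb3 to Pfkfb1, 0.21, ran from -0.0503 without WT cSCC replicate 2 to 0.479 without WT cSCC replicate 1, where it passed. The 8 isoenzyme ratios that passed ranged over 8 to 10 with 1 library left out. Of the other values of named members in TAp63-/- cSCC, 257 kept direction and, where tested, the call, and 13 lost the call. Those 257 include the setting with male libraries only, which was judged by direction alone. In WT cSCC 180 kept direction and call, 39 lost the call and 2 gained it. The causes were not tested. No paired analysis was possible because the labels give no replicate numbers that groups share.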
